A study of Mus musculus with 10 samples.

Results

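The lysyl oxidases and lysyl hydroxylases, the enzymes that prepare and build the covalent cross-links of collagen, were followed in CD90- and CD90+ myofibroblastic cancer-associated fibroblasts (myCAFs) of mouse pancreatic ductal adenocarcinoma. They were chosen by family membership and comprise 5 oxidases (Lox, Loxl1, Loxl2, Loxl3 and Loxl4) and 3 hydroxylases (Plod1, Plod2 and Plod3), 8 of 48471 genes with a transcript in the files. All 8 passed the filter on low counts and were among the 15378 genes tested.

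The cells were flow-sorted by surface CD90, the product of Thy1, from tumours that grew in C57BL/6J mice whose pancreas had received KPC T-LOH organoids, a transplantable form of pancreatic cancer. Each of 5 tumour pools gave a CD90- and a CD90+ library. All 10 libraries thus shared host strain, the KPC T-LOH type of graft and the myCAF gate, and the fractions differed in CD90. By the sample titles, 4, 1, 2, 3 and 1 animals made up pools 1 to 5, 11 in all, whereas the design text counts 5 male mice, so n is given as pools. The sources used here do not state the ages, the number of organoid lines or the other markers of the gate.

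Lysyl hydroxylases act inside the cell, in the endoplasmic reticulum, where they add a hydroxyl group to lysines of the procollagen chains. Lysyl oxidases are copper-dependent enzymes that act mostly outside the cell, where they turn lysines and hydroxylysines of collagen, and lysines of elastin, into aldehydes that then join neighbouring chains. Whether a lysine was hydroxylated beforehand sets the chemical type of the cross-link, and cross-linked fibrillar collagen gives the stroma of pancreatic cancer its stiffness.

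Estimated reads per library ranged from 11.7 to 47.7 M, with 3.71 to 28.5 M on protein-coding genes of the nucleus. Thy1 was at 8.47 ± 5.18 CPM (counts per 1000000 reads, with libraries scaled by the trimmed mean of M-values, TMM) in CD90- and 89.1 ± 29.5 CPM in CD90+ libraries (SD, n = 5 pools), without overlap, which fits the labels of the sort. Fibroblast markers were present in every library, but 7 of 8 fell in CD90- libraries, with a summed level of 2664 to 13811 against 21414 to 35491 CPM, and 6 of 6 myofibroblast markers fell (168 to 352 against 656 to 1281 CPM). Cancer epithelial markers rose for 8 of 12 (812 to 3129 against 234 to 1700 CPM), and none of the 12 was at 0 in any CD90- library; Cldn7 and Tff1 were at 0 in some CD90+ libraries. Endothelial markers rose for 2 of 7 (38.1 to 272 against 27.1 to 37.5 CPM), with Cdh5, Emcn, Tek and Plvap each at 0 in at least 1 library. At an unadjusted edgeR p under 0.05, 4 were higher and 1, Kdr, was lower (log2 fold -0.70). The 272 CPM was that of the CD90- library of pool 2, and the next highest CD90- sum was 62.6 CPM. None of 6 tested macrophage markers passed the edgeR test (1 higher at an unadjusted p under 0.05, 10.6 to 34.2 against 7.08 to 13.4 CPM), with Ptprc at 0 in 1 CD90+ library and Adgre1 in 5 libraries. None of 6 tested pericyte markers passed either (4 lower and 1 higher at an unadjusted p under 0.05, 12.0 to 160 against 48.5 to 81.2 CPM). Of 5 mesothelial markers Msln rose and 3 others were lower at an unadjusted p under 0.05 (154 to 266 against 185 to 298 CPM). Of 2 tested acinar markers Ctrb1 rose (all 5 markers 1.98 to 25.0 against 1.26 to 3.83 CPM), and Cpa1, Pnlip and Prss2 were too low to be tested. Mitochondrial ribosomal RNA took 59.3% ± 17.6 of gene-assigned reads in CD90- and 26.9% ± 12.8 in CD90+ libraries. The CD90- library of pool 3 lay on the side of the CD90+ libraries in a principal component analysis, and the CD90+ library of pool 5 lay apart from all others. The part of these shifts in the results that follow was not tested unless a value is given, and in sorted bulk samples fewer cells of a type and less RNA per cell cannot be told apart.

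Of the 8 genes, 7 fell in CD90- relative to CD90+ myCAFs, all in 5 of 5 pools, and Loxl4 did not pass the test. The largest falls were those of Loxl3, Loxl1 and Lox, by 5.56-, 5.17- and 4.69-fold, and the smallest was that of Plod3, by 1.51-fold. Among all 15378 genes tested with edgeR's quasi-likelihood test, 7.05% were called lower and 5.83% higher at an adjusted p under 0.05. The median log2 fold (CD90- over CD90+) was -1.52 over the 8 genes and 0.036 over all genes tested. No gene of the 8 was called higher, and none was at an unadjusted p under 0.05 in that direction in the edgeR fit of all libraries with the pool as a block. There was 1, Loxl4, with DESeq2, with limma-voom and in 4 other edgeR fits (no filter on low counts, without pool 4, without pools 4 and 5, and with a mitochondrial rRNA covariate).

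**Figure D1:**
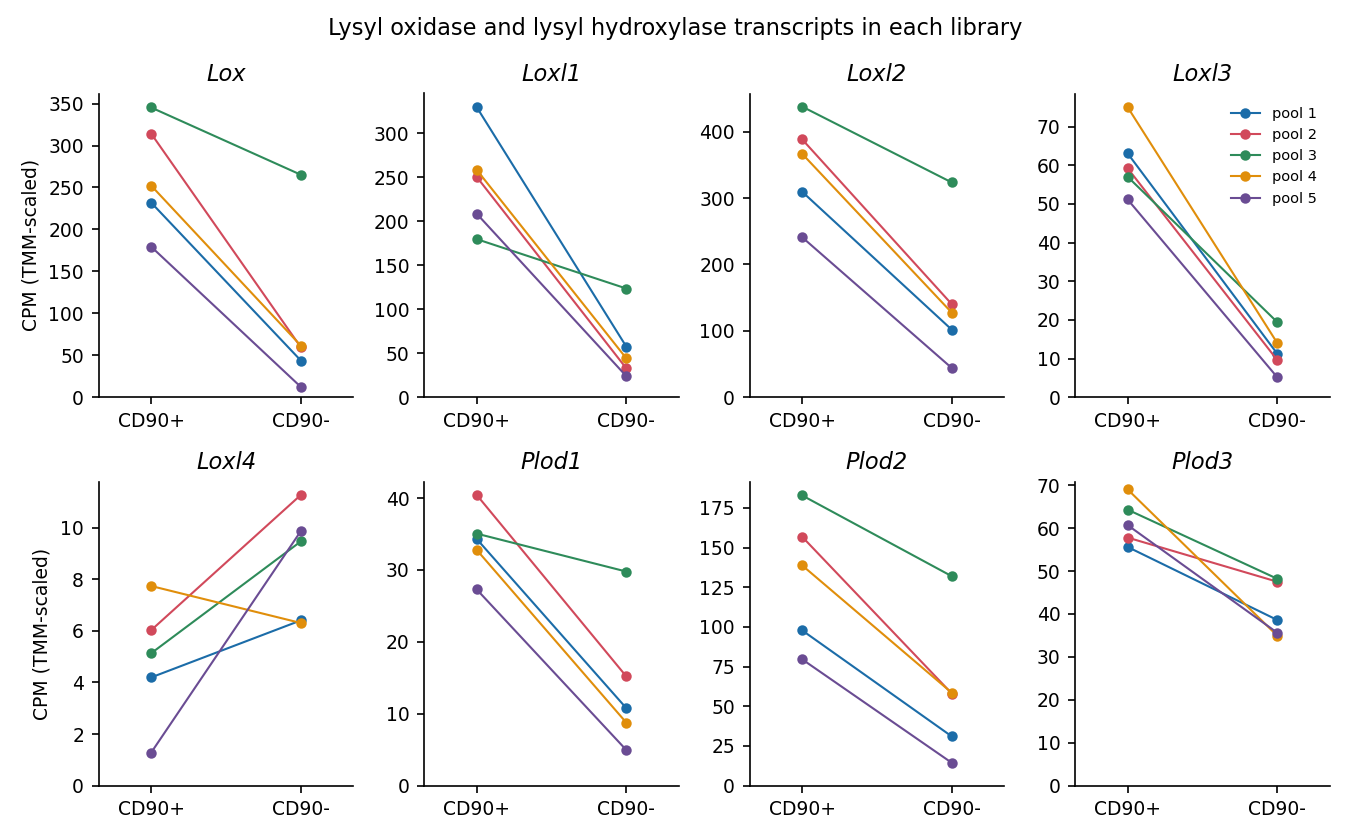
Level of each gene (TMM-scaled CPM, linear axes from 0) in the 10 libraries, with a line joining the CD90+ and CD90- library of a pool. Every line falls except 4 of the 5 for Loxl4, and the CD90- library of pool 3 is the highest of its fraction for the 7 genes that fell.

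Lox, the founding oxidase of the family and a cross-linker of fibrillar collagens and elastin, was at 43.6, 59.4, 265, 61.4 and 12.2 CPM in the CD90- libraries of pools 1 to 5. The CD90+ libraries held 232, 314, 345, 252 and 179 CPM. Apart from pool 3, every CD90- library was well below every CD90+ library, and pool 3 alone made the fractions overlap. Lox fell by 2.23 on the log2 scale (SE 0.44, edgeR adjusted p = 0.0162).

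Loxl1, best known for its role in the upkeep of elastic fibres, was at 57.4, 32.7, 124, 44.1 and 23.8 CPM in CD90- and 330, 251, 180, 259 and 209 CPM in CD90+ libraries. The fractions did not overlap. Pool 3 held both the highest CD90- and the lowest CD90+ level, so its difference was the smallest. Loxl1 fell by 2.37 on the log2 scale (SE 0.37, edgeR adjusted p = 0.00642).

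Loxl2, an oxidase with scavenger receptor domains that also acts on the collagen of basement membranes, had 102, 140, 323, 127 and 43.8 CPM in CD90- libraries. The CD90+ libraries of the same pools had 310, 389, 438, 367 and 241 CPM. As for Lox, the CD90- library of pool 3 lay within the range of the CD90+ libraries and the other 4 lay below it. Loxl2 was 2.83-fold lower (interval of the log2 fold -2.06 to -0.94, SE 0.25, edgeR adjusted p = 0.00626).

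Loxl3, a close relative of Loxl2 that is needed for palate and spine development, was at 11.2, 9.59, 19.4, 14.0 and 5.14 CPM in CD90- libraries. In CD90+ libraries it was at 63.1, 59.3, 57.1, 75.1 and 51.2 CPM. The fractions were far apart in each pool, pool 3 included. Loxl3 fell by 2.48 (SE 0.24) on the log2 scale, with the smallest edgeR adjusted p of the 8 genes, 0.00102.

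Loxl4, the third oxidase with scavenger receptor domains, went the other way in most pools, at a low level. It was at 6.40, 11.3, 9.46, 6.30 and 9.86 CPM in CD90- and 4.19, 6.02, 5.13, 7.74 and 1.28 CPM in CD90+ libraries. The CD90- level was the higher in pools 1, 2, 3 and 5 and the lower in pool 4, and the fractions overlapped. The lowest library, CD90+ of pool 5, held 13 reads of the gene. The fitted log2 fold was 0.95, with a 95% interval from -0.04 to 1.93 (edgeR adjusted p = 0.204). Without pool 5 the log2 fold was 0.51.

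Plod1, which hydroxylates lysines of the collagen triple helix and is the gene of a kyphoscoliotic Ehlers-Danlos syndrome, was at 10.8, 15.2, 29.8, 8.76 and 4.95 CPM in CD90- libraries. The CD90+ libraries held 34.3, 40.5, 35.1, 32.8 and 27.3 CPM. Only the CD90- library of pool 3 reached the CD90+ range. Plod1 fell by 1.53 (SE 0.29) on the log2 scale (edgeR adjusted p = 0.00955).

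Plod2, which hydroxylates lysines of the collagen telopeptides and is tied to the stable cross-links of fibrotic tissue, was at 31.0, 58.0, 132, 58.5 and 14.4 CPM in CD90- libraries. The CD90+ libraries held 97.9, 157, 183, 139 and 79.7 CPM. In pool 3 the CD90- library exceeded the CD90+ libraries of pools 1 and 5, while within each pool the CD90- level was the lower. The fall was 1.45 (SE 0.25) on the log2 scale, a 2.73-fold difference (edgeR adjusted p = 0.00682).

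Plod3, which carries glycosyltransferase activity besides its hydroxylase activity, was at 38.6, 47.5, 48.2, 34.9 and 35.6 CPM in CD90- libraries. The CD90+ libraries held 55.6, 57.8, 64.3, 69.0 and 60.7 CPM. Both sets were narrow and did not overlap. Plod3 fell by 0.59 (SE 0.15) on the log2 scale (edgeR adjusted p = 0.0324). Together with Loxl1 and Loxl3, it made 3 of 8 genes whose CD90- libraries all lay below all CD90+ libraries, which held for 4.62% of the genes tested. For none of the 8 did all CD90- libraries lie above all CD90+ libraries, as 3.32% of genes did.

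The calls depended on the fit more than the directions did. Without the pool as a block, 3 of 8 genes were called lower (Loxl1, Loxl3 and Plod3), against 3.54% of all genes. All 7 were still at an unadjusted edgeR p under 0.05, as were 3295 of all 15378 genes in either direction. Without pool 1, 4 were called lower (2.38% of all genes), and Lox, Plod1 and Plod3 missed the threshold (edgeR adjusted p = 0.0663, 0.0551 and 0.112). Lox was lost with limma-voom (adjusted p = 0.0532), Plod1 and Plod3 with a transcript length offset (edgeR adjusted p = 0.0660 and 0.0701), and Plod3 with protein-coding transcripts only (0.103). Plod3 was also lost without pool 4 (0.0903) or pool 5 (0.0687), and without both of these pools Loxl3 alone was called (1.14% of all genes). With the mitochondrial rRNA share of each library as a covariate, none of the 8 genes and none of all genes was called (2 of 8 and 882 of all at an unadjusted edgeR p under 0.05). In that fit the log2 folds were -2.92 for Lox, -1.99 for Loxl1, -1.74 for Loxl2, -2.74 for Loxl3, -1.27 for Plod1 and -2.01 for Plod2. That of Plod3 shrank to -0.26 and that of Loxl4 grew to 3.62. The rRNA share was itself the higher in the CD90- library of 5 of 5 pools. The 7 calls held without pool 3, whose CD90- library stood apart, and 6 held without pool 5, whose CD90+ library did.

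**Figure D2:**
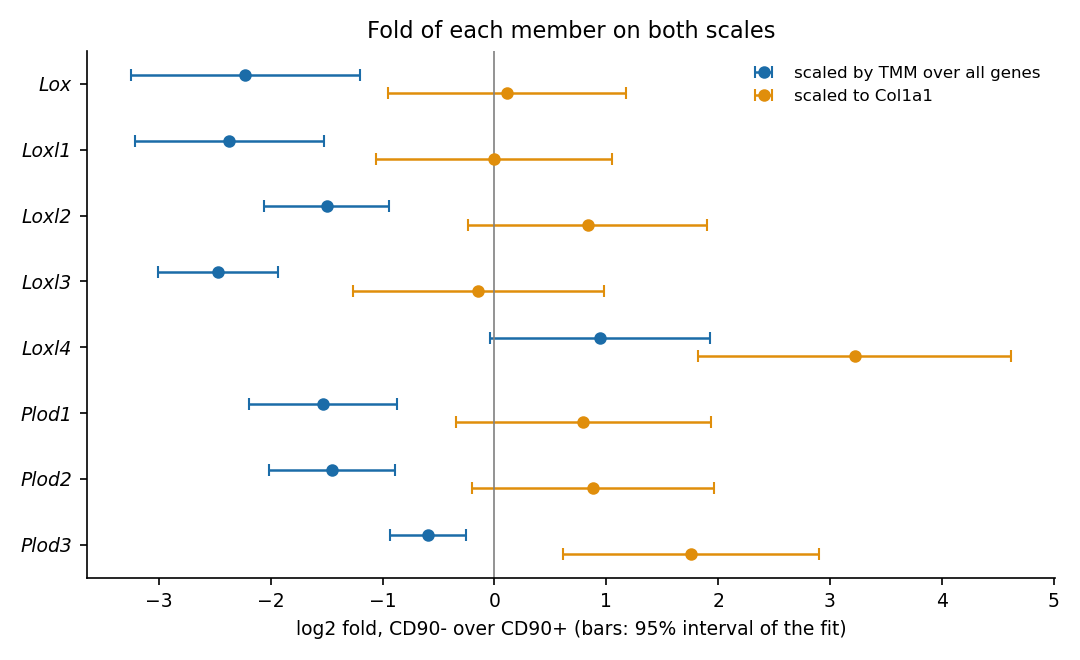
Log2 fold (CD90- over CD90+) of each gene with its 95% interval from the edgeR fit, scaled by TMM over all genes or to Col1a1 alone. On the TMM scale 7 intervals lie below 0, and on the Col1a1 scale those of Loxl4 (1.82 to 4.62) and Plod3 (0.61 to 2.91) lie above 0 while the other 6 include 0.

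The order of the genes was read from levels per length, as deposited TPM rescaled so that nuclear protein-coding genes sum to 1000000 (nTPM). In CD90+ libraries Loxl2 was at 352 ± 81.6, Loxl1 at 293 ± 74.2, Lox at 247 ± 81.5 and Plod2 at 216 ± 81.6 nTPM (SD, n = 5). Plod3 followed at 136 ± 17.7, Loxl3 at 122 ± 47.4, Plod1 at 66.0 ± 14.2 and Loxl4 at 7.01 ± 3.03 nTPM. These levels sum all transcripts of a gene, noncoding ones included. Forms annotated as retained introns, Plod3-203, Plod3-205 and Plod3-206, held on average 10.8, 6.00 and 32.0% of Plod3 in CD90+ libraries. The noncoding Loxl3-203 held 30.2% of Loxl3 there, so the order of Plod3, Loxl3 and Plod1 need not hold for coding transcripts. Of these neighbours, Lox exceeded Plod2 and Plod1 exceeded Loxl4 in 5 of 5 libraries (exact paired permutation p = 0.0625 each, two-sided, the smallest that 5 pools allow), and the others changed places in at least 1 library. Loxl2 thus led the oxidases by its mean only, and Loxl4 was the rarest of the 8 in each CD90+ library.

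In CD90- libraries Loxl2 was again first, at 153 ± 96.3 nTPM, and exceeded the next gene, Plod2 (98.0 ± 73.5), in 5 of 5 libraries (exact paired permutation p = 0.0625). Plod3 was at 90.9 ± 25.8, Lox at 83.9 ± 101 and Loxl1 at 75.0 ± 52.5 nTPM. Plod3-203, Plod3-205 and Plod3-206 held on average 11.7, 11.1 and 30.7% of Plod3 in CD90- libraries. The place of Plod3 above Lox and Loxl1 therefore need not hold for coding transcripts. The last 3 were Plod1 at 29.8 ± 16.8, Loxl3 at 22.7 ± 8.21 and Loxl4 at 15.1 nTPM (range over the 5 libraries 8.16 to 22.3). No other neighbours in this order differed in the same direction in all 5 libraries. With noncoding forms counted, Loxl2 led by its mean only here as well. Plod3 exceeded it in pool 1 (112 against 109 nTPM) and pool 5 (64.3 against 52.6 nTPM). That excess rested on the retained-intron forms of Plod3, whereas the forms of Loxl2 were all coding. The coding forms of Plod3 held 29.4 and 27.2 nTPM in the CD90- library of pool 1. In that of pool 5, the only coding form of Plod3 with reads held 35.8 nTPM, so coding Plod3 lay below Loxl2 in these libraries. The wide spread of Lox came from pool 3, where it stood at 262 nTPM against 12.3 in pool 5.

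Col1a1, which encodes the main chain of type I collagen and so the main substrate of these enzymes, fell from 19701 ± 4167 to 4432 ± 2795 CPM, by 2.37 (SE 0.39) on the log2 scale (edgeR adjusted p = 0.00595). Scaling each library to its Col1a1 reads asks which enzyme genes fell more or less than the substrate gene. This scale moved the median log2 fold of all genes to 2.37, and 71.6% of 15377 genes were called higher and 0.13% lower. Of the 8 genes, Loxl4 and Plod3 were called higher and none lower (0 at an unadjusted edgeR p under 0.05), with a median of 0.81. The share of 2 in 8 is below the background of this scale, and all but Loxl4 had a lower Col1a1-scaled log2 fold than the median gene.

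Lox, Loxl1 and Loxl3 had Col1a1-scaled log2 folds near 0. Loxl1 had 15.9, 11.2, 13.7, 9.26 and 13.1 reads per 1000 Col1a1 reads in CD90- and 13.7, 12.7, 13.6, 11.5 and 11.1 in CD90+ libraries. These values overlapped throughout, with means of 12.6 ± 2.50 and 12.5 ± 1.20 (exact paired permutation p = 1). The interval of its Col1a1-scaled log2 fold ran from -1.06 to 1.06, so differences of that size either way lie within the error of that fit. The observed log2 ratios spread less, from -0.31 to 0.24 over the pools (SD 0.24), than the SE of 0.54 in the fit would give. Lox had 16.3 ± 8.78 and 14.5 ± 6.98 reads per 1000 Col1a1 reads (log2 fold 0.11, interval -0.95 to 1.17), and Loxl3 had 2.86 ± 0.44 and 3.19 ± 0.68 (log2 fold -0.15, interval -1.27 to 0.98). Lox differed between pools more than between fractions, with pool 3 highest in both.

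Loxl2, Plod1 and Plod2 were higher per Col1a1 read in 5 of 5 pools but were not called. Loxl2 had 28.1, 48.1, 35.7, 26.7 and 24.1 reads per 1000 Col1a1 reads in CD90- and 12.9, 19.6, 33.0, 16.3 and 12.8 in CD90+ libraries. Pool 3 showed hardly any difference, and its CD90+ library was the only one to reach the CD90- range. The Col1a1-scaled log2 folds were 0.83 for Loxl2 (interval -0.24 to 1.91), 0.80 for Plod1 (-0.34 to 1.94) and 0.88 for Plod2 (-0.20 to 1.96), with edgeR adjusted p of 0.156, 0.206 and 0.138. The exact paired permutation p was 0.0625 for each, the smallest that 5 pools allow. The SE in the edgeR fit was 0.55, 0.58 and 0.55, larger than the SD of the pools' log2 ratios (0.46, 0.46 and 0.47). The intervals of the fit are thus wider than the observed spread over the pools would give. Without pool 3 these 3 genes were called higher too (edgeR adjusted p = 0.00151, 0.0352 and 0.00222), which made 5 of 8 against 74.7% of all genes.

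Plod3 had 10.7, 16.3, 5.32, 7.33 and 19.6 reads per 1000 Col1a1 reads in CD90- and 2.31, 2.92, 4.85, 3.06 and 3.22 in CD90+ libraries. The fractions did not overlap, although the values of pool 3 were close to each other. The Col1a1-scaled difference was 3.39-fold (log2 fold 1.76, interval 0.61 to 2.91, edgeR adjusted p = 0.00487). It was no longer called without pool 1 (edgeR adjusted p = 0.0533) or pool 2 (0.0537), and its size lay below the median of all genes on this scale.

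Loxl4 had 1.77, 3.87, 1.05, 1.32 and 5.42 reads per 1000 Col1a1 reads in CD90- and 0.174, 0.304, 0.387, 0.343 and 0.0677 in CD90+ libraries. Each CD90- library exceeded each CD90+ library, and the 2 libraries of pool 5 held the extremes. The difference was 9.32-fold (log2 fold 3.22, SE 0.71, edgeR adjusted p = 5.2e-05), and without pool 5, whose CD90+ library held 13 Loxl4 reads, the log2 fold was 2.60 (edgeR adjusted p = 0.00223). Absence of overlap on this scale, with CD90- higher, held for Loxl4 and Plod3 among the 8 genes and for 55.4% of all genes tested, while none of the 8 lay wholly lower (0.0715% of all genes). Without pools 4 and 5, neither Loxl4 (edgeR adjusted p = 0.0760) nor Plod3 (0.175) was called, against 6.14% of all genes called higher.

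**Figure D3:**
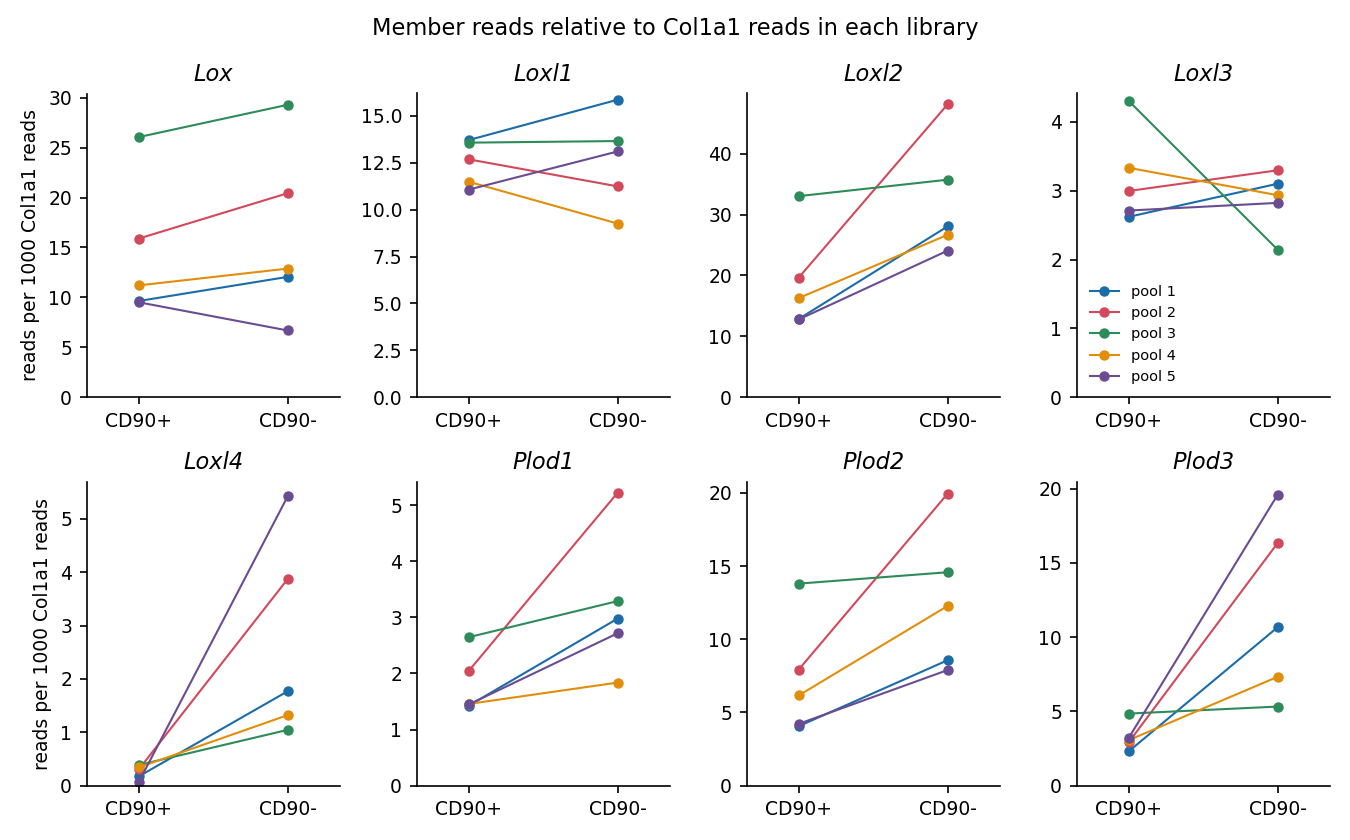
Reads of each gene per 1000 Col1a1 reads in the 10 libraries (linear axes from 0), with a line joining the libraries of a pool. The lines of Loxl1 and Loxl3 cross and that of Lox rises in 4 of 5 pools, whereas for Loxl4 and Plod3 every CD90- point lies above every CD90+ point.

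Loxl4 and Plod3 are also 2 of 3 genes of the families with a promoter entry in the RefSeq table used (GRCm38.p6). Their 250 bases before the start are shown because hypoxia is a textbook inducer of collagen-modifying enzymes. Capitals mark the core of the hypoxia response element, ACGTG or GCGTG, searched on both strands. Overlapping matches were allowed, and the matches shown do not overlap. The Loxl4 stretch lies at chr19:42612807-42613056 on the minus strand and the Plod3 stretch at chr5:136986769-136987018 on the plus strand.
Loxl4: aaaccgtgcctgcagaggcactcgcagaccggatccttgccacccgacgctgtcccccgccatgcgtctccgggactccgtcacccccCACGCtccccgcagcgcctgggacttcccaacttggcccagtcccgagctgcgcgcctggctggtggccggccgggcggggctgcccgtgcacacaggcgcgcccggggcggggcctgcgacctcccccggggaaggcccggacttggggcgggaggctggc
Plod3: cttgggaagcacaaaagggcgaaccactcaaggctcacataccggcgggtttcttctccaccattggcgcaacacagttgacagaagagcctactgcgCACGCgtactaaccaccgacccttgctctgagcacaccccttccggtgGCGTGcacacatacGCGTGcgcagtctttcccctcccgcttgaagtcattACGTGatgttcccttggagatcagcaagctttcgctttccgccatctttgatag
The Loxl4 stretch held 1 match and the Plod3 stretch 4, and 38.6% of 32851 promoters of this length held at least 1. The third gene with an entry, Plod1, had 1 match. The letters GGAATG (bound by TEAD factors), GTCTGT (which holds a SMAD core) and CAGGTG (bound by Snail factors), which 12.6%, 13.2% and 17.2% of promoters held, were not in these windows of the 3 genes. A match is a description of the sequence and no evidence of binding.

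The make-up of each family, read as a share of its summed TPM within a library, does not depend on library scaling. It counts noncoding transcripts too, as the levels per length do. Loxl2 made up 43.5, 51.9, 39.5, 50.5 and 37.8% of the oxidases in CD90- and 28.8, 36.8, 38.1, 33.5 and 35.7% in CD90+ libraries. It took a larger share in each CD90- library than in its partner, by 10.1 percentage points on average. Loxl4 made up 3.25, 7.67, 1.83, 3.40 and 15.3% in CD90- and 0.600, 0.908, 0.595, 0.840 and 0.354% in CD90+ libraries, without overlap. The mean difference was 5.62 points, and 3.30 without pool 5. Lox, Loxl1 and Loxl3 took smaller mean shares in CD90- libraries, of 19.0, 22.4 and 7.68% against 23.9, 29.3 and 11.6%, each lower in 4 of 5 pools. Without pool 5 the mean share of Lox was lower by 3.12 points in place of 4.88.

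Among the hydroxylases, Plod2 made up 28.7, 42.2, 57.0, 49.7 and 25.4% in CD90- and 51.6, 54.6, 60.0, 55.5 and 29.8% in CD90+ libraries. Its share was smaller in the CD90- library of each pool and on average dropped by 9.70 points, although pool 5 was low in both fractions. Without pool 1 it dropped by 6.40 points. Plod3 had a share of 46.4% ± 16.1 against 33.4% ± 7.02, higher in 5 of 5 pools with its retained-intron forms counted. On coding forms alone, its share was not the higher in the CD90- library of pool 4. Plod3-201, its only coding form with reads in pool 4, held 22.2 nTPM in CD90- and 60.3 nTPM in CD90+. Plod1 stood at 13.0% ± 3.87 and 16.3% ± 4.96, all forms counted. With noncoding forms counted, the shares of Loxl2, Loxl4, Plod2 and Plod3 moved one way in every pool (exact paired permutation p = 0.0625, Benjamini-Hochberg adjusted p = 0.125 over the 8 shares). None passed the threshold, which 5 pools cannot reach with this test, and the spread of the differences was 5.59 points for Loxl4 and 10.6 for Plod3.

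**Figure D4:**
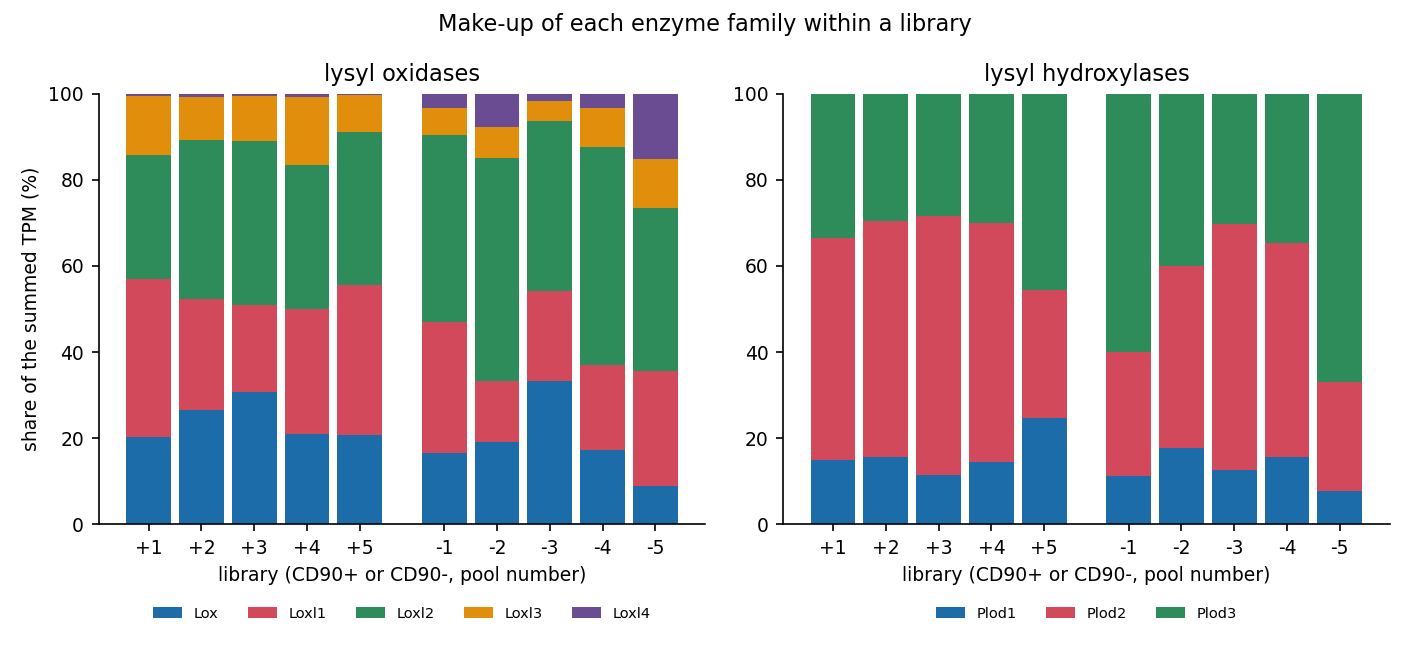
Share of each gene in the summed TPM of the 5 oxidases (left) and the 3 hydroxylases (right) in each library, CD90+ libraries first and CD90- libraries second in each panel, labelled by pool. Loxl4 is a thin band in CD90+ libraries and reaches 15.3% in the CD90- library of pool 5, and in pool 1 Plod2 leads in the CD90+ and Plod3 in the CD90- library.

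Plod2 has a short coding form (Plod2-201) and a long one (Plod2-203) that differ by a cassette exon of 63 bases, which keeps the reading frame. The long form is the one known for hydroxylation of telopeptide lysines, so the exon is shown with its own bases in capitals. The 20 bases on each side, in lower case, are those of the spliced transcript and not of the introns beside the exon. The exon is number 14 of 20 in the GENCODE M21 annotation, and it alone spans chr9:92601985-92602047 (GRCm38, plus strand).
Plod2-203 alternative exon: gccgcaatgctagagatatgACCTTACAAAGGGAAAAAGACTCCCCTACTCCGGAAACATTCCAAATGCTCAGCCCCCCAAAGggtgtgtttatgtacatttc
Of the reads that Salmon assigned to these 2 forms, the long form took 10.5, 2.15, 21.3, 0 and 0% in CD90- libraries of pools 1 to 5. In CD90+ libraries it took 9.93, 8.27, 22.1, 20.1 and 20.6%. The short form prevailed in all 10 libraries, and in pools 1 and 3 the values of the fractions lay close together. The counts of 0 in the CD90- libraries are out of 521 reads of both forms in pool 4 and 373 in pool 5. Shares of up to 0.576 and 0.804% (3 reads of the total) would be allowed if every read told the forms apart. The forms are 3649 and 3663 bases long, and their coding sequences differ by the exon of 63 bases alone. Reads on sequence that both forms share cannot tell them apart, so the true limits are wider.

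Over the pools the long form stood at 6.79% ± 9.19 in CD90- and 16.2% ± 6.55 in CD90+ libraries, lower in 4 of 5 pools (exact paired permutation p = 0.125, two-sided). The Wilson 95% intervals were 17.9 to 23.5% in the CD90+ library of pool 5, the least covered of its fraction with 802 reads, and 8.61 to 12.7% in the CD90- library of pool 1. Intervals and limits cover counting error only, not the error of assigning reads to forms. They count reads on shared sequence as if these told the forms apart, so they are too narrow. Polymerase chain reaction copies were not marked by molecular identifiers. Over all 8 genes, 25 transcripts held at least 5% of their gene on average, and the smallest exact paired permutation p was 0.0625 (adjusted p of at least 0.987 over the 25), the lowest that 5 pools can give, so none could pass the threshold. The lowest p was that of Plod2-201, whose share of all Plod2 transcripts was 75.8% ± 7.50 against 68.3% ± 4.73, higher in the CD90- library of 5 of 5 pools. On that measure the long form, Plod2-203, was at 5.75% ± 7.96 in CD90- and 13.8% ± 6.58 in CD90+ libraries. It was lower in 3 pools and higher in 2 (exact paired permutation p = 0.25).

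The genes most like each member over the 10 libraries are given as a description, by Pearson's r of log2 CPM, since all libraries share the contrast between the fractions and differ in depth. Lox and Loxl2 were nearest to each other (r = 0.996), followed by Timp1, an inhibitor of matrix metalloproteinases, and Slit3, a secreted guidance ligand (0.995 for both with Lox). Plod2 was nearest to Loxl2 (0.986), Timp1 (0.980) and Pygl, a glycogen phosphorylase (0.979). Loxl1 was nearest to Lrp1, an endocytic receptor (0.994), Fbn1, the fibrillin of microfibrils (0.992), and Aebp1, a collagen-binding secreted protein (0.991). Loxl3 was nearest to Col5a2, a fibrillar collagen chain (0.992), the gelatinase Mmp2 (0.992) and the mechanosensitive channel Piezo2 (0.990).

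Timp1 thus recurred among the closest genes of Lox, Loxl2 and Plod2, and no gene recurred between these and the closest of Loxl1 or Loxl3. The r with Col1a1 was 0.906 for Lox, 0.893 for Loxl2 and 0.831 for Plod2, against 0.988 for Loxl1 and 0.982 for Loxl3. Plod1 was nearest to Rtn4rl2 (0.995), the transcription factor Zeb2 (0.994) and the peroxidasin Pxdn (0.988), which forms sulfilimine cross-links in collagen IV. Plod3 had looser neighbours, Kif1bp (0.959), the Fc receptor Fcgrt (0.950) and the integrin Itga9 (0.943). Loxl4 was nearest to Scaf8 (0.951), Relch (0.935) and Dagla (0.932), and its r with each of the other 7 genes was negative, from -0.22 with Plod2 to -0.53 with Loxl3.

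Of 16 genes that activate, supply with copper or anchor the lysyl oxidases, 15 were tested and 8 fell in CD90- libraries, with a median log2 fold of -1.24 (7.05% of all genes fell). Bmp1, the proteinase that releases active Lox from its proenzyme, was at 189 ± 95.5 CPM in CD90- and 466 ± 67.7 CPM in CD90+ libraries (log2 fold -1.43, edgeR adjusted p = 0.00377). Pcolce, the enhancer of procollagen cleavage by Bmp1, fell by 1.41 and Fmod, the collagen-binding proteoglycan fibromodulin, by 2.73 on the log2 scale. The other 7, which include the copper carriers Atp7a, Atox1 and Slc31a1, did not pass the test, and Tll2 was too low to be tested. Of the 15, 6 were called lower without the pool block or without pool 1 (3.54 and 2.38% of all genes), and 3 without pools 4 and 5 (1.14%). Relative to Col1a1, 5 of the 15 were called higher, a smaller share than the 71.6% of all genes.

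Among partners of the hydroxylases and other collagen-modifying enzymes, 14 of 15 genes were tested and 12 fell (7.05% of all genes fell). Their median log2 fold was -1.47. The 3 with the smallest p were P4ha3, a prolyl 4-hydroxylase subunit (-2.16), P3h1, a prolyl 3-hydroxylase (-1.80), and Serpinh1, the collagen chaperone HSP47 (-1.97). Serpinh1 was at 227 ± 166 CPM in CD90- and 728 ± 79.4 CPM in CD90+ libraries, with the CD90- library of pool 3 again the highest of its fraction. Colgalt1, which adds galactose to hydroxylysine, was not among the genes that fell, at 59.9 ± 14.2 and 61.0 ± 11.5 CPM, nor was P3h2, which was near the limit of detection (1.14 and 0.405 CPM). Without the pool block 4 of the 14 were called lower (3.54% of all genes) and without pool 1 it was 6 (2.38%). Without pool 2 it was 7, against 674 of 15545 genes. Relative to Col1a1, 6 of the 14 were called higher, a smaller share than the 71.6% of all genes.

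The fibrillar collagen genes, the substrates, fell in all 7 cases (7.05% of all genes fell), with a median log2 fold of -2.28. Col11a1 fell by 2.90, Col5a1 by 2.16 and Col5a2 by 2.50 on the log2 scale (edgeR adjusted p = 0.000205, 0.00345 and 0.00452). None of the 6 other than Col1a1 was called relative to Col1a1, where 71.6% of all genes were called higher. Markers of fibroblasts fell alongside, as given above.

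Hypoxia is a known inducer of Lox and Plod2. Of 12 genes of the hypoxia response, 11 were tested and 1 was called higher (5.83% of all genes), with a median log2 fold of 0.15. This was Ndrg1, a stress-response gene, at 159 ± 47.6 CPM in CD90- and 98.6 ± 36.5 CPM in CD90+ libraries (log2 fold 0.70, edgeR adjusted p = 0.0156, higher in 5 of 5 pools). The glycolytic enzyme gene Pgk1 (0.57), higher in 4 of 5 pools, and the growth factor gene Vegfa (-0.28), lower in 5 of 5 pools, did not pass. No gene of the list was called higher without the pool block or without pool 1, 4 or 5 (1 or 2 at an unadjusted edgeR p under 0.05). Relative to Col1a1 all 11 were called higher, against 71.6% of all genes.

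**Figure D5:**
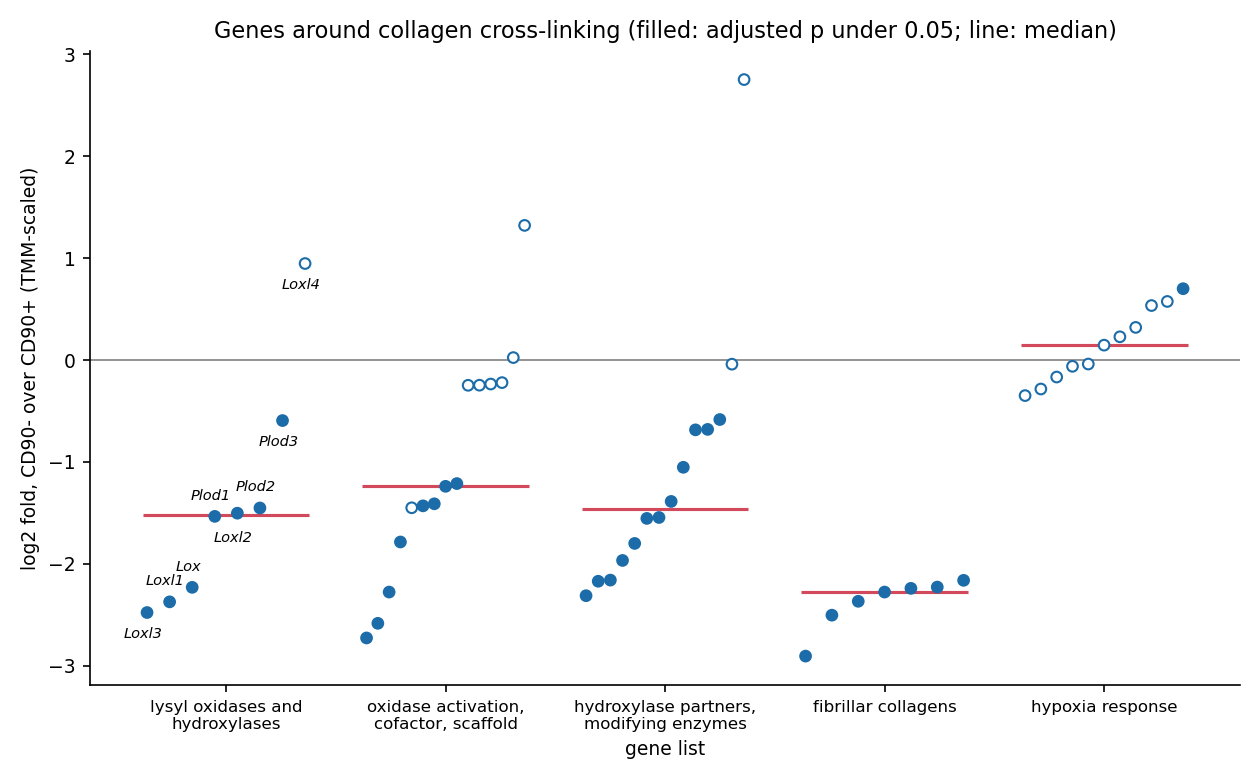
Log2 fold (CD90- over CD90+, TMM-scaled) of each tested gene in the 8 genes and the 4 lists around them, with filled points for genes at an edgeR adjusted p under 0.05 and a line at the median of each group. The fibrillar collagens sit between -2.90 and -2.16, and the hypoxia genes lie around 0.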

How the data were processed

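RNA-seq of 10 libraries (5 tumour pools, a CD90- and a CD90+ fraction each) was used. Per the labels' protocols, a low-input stranded kit was applied to 0.1 to 1.2 ng of RNA with integrity numbers from 3.1 up to 8.7, with 10 cDNA PCR cycles for low and 5 for higher input and 14 final cycles. The input of a given library is not recorded.

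The authors deposited an estimated count and a TPM for each transcript, made with Salmon 1.9.0 on GRCm39 (mm39) per the submitters' processing notes. The sources used here do not state the annotation release, strand setting or bias options. Deposited effective lengths entered an alternative fit only.

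Of 144584 transcript identifiers, 133666 (92.4%) matched the GENCODE M21 annotation of GRCm38, used for gene names, forms and the exon shown. The others held 3.63 to 12.1% of a library's counts and were left out. Expected counts were summed per gene, rounded and tested in edgeR 4.0.16 (R 4.3.3, low counts removed by filterByExpr, TMM scaling, glmQLFTest after a robust glmQLFit). The tumour pool entered as a block because both fractions share their animals. As a check, the libraries of pools 1 to 5 deviated from the mean of their fraction with correlations of 0.057, 0.004, 0.461, 0.028 and 0.188 within a pool. The p-values were adjusted over all genes by Benjamini-Hochberg with a threshold of 0.05. A further fit scaled each library to its Col1a1 reads. CPM are TMM-scaled. Shares and ratios were compared by an exact two-sided permutation test that flips the signs of the 5 pool differences. Nothing in the labels separates animals within a pool.

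The 8 genes, the lists and the tests were chosen with earlier results of these data known. Named genes were the 8, Thy1, Col1a1, the 3 genes with the smallest p in each list and the 3 most like each of the 8 (mean log2 CPM of at least 3). Genes outside this rule (Colgalt1, P3h2, the copper carriers and cell type markers) were named after their values were seen. Alternatives were no block, DESeq2 1.42.0, limma-voom (limma 3.58.1), other scalings and filters, a length offset, protein-coding transcripts, a covariate, and pools left out. The main edgeR fit, with TMM scaling and the pool block, was also run on simulated counts, and the other fits were not.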

Additional observations from a re-analysis of the deposited data

Results flagged for a closer look

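In each group of 5 libraries, the gap between the most extreme value and its neighbour was set against the whole range, for 48 groups of values of the 8 genes. Dixon's 95% critical value, which chance exceeds in about 1 in 20 groups, was exceeded in 2 of the 48. The level of Lox in the CD90- library of pool 3 was 265 CPM, against 12.2 to 61.4 CPM in the other CD90- libraries, a ratio of 0.805. The share of Plod2 in the summed TPM of the hydroxylases was 29.8% in the CD90+ library of pool 5, against 51.6 to 60.0% in the other CD90+ libraries, a ratio of 0.723.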

How the results depend on the processing

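The number of all genes called, 1980 in the fit with the pool block, was 965 with no replicate block, 3452 with DESeq2, 1271 with protein-coding transcripts only, 541 without pools 4 and 5, and 675 to 2019 when each pool was left out. The 7 genes called lower became 3 with no replicate block, 1 without pools 4 and 5 and 4 to 7 with each pool left out. With the share of mitochondrial rRNA in the model, 0 of all genes were called (882 at an unadjusted edgeR p under 0.05), 0 of the 8 (2) and 0 in each list (collagens 6, hydroxylase partners 3, oxidase list 1, hypoxia 0). The cause was not tested. All 7 kept their direction in all 17 settings run, and Loxl4 in its 16.

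Relative to Col1a1, the 2 genes called higher became 0 without pools 4 and 5 and 1 to 5 with each pool left out. The sign of Loxl1, near 0 throughout, turned with no replicate block (0.014), without pools 4 and 5 (0.015), without pool 2 (0.038) and without pool 4 (0.072), with a range of -0.066 to 0.072 over pools left out, and that of Loxl3 without pool 3 (0.065, range -0.246 to 0.065). In the lists, a check added after the data were seen, hydroxylase partners called lower went from 12 to 4 with no replicate block, 3 without pools 4 and 5 and 6 to 12 with each pool left out. Without pools 4 and 5 the collagens went from 7 to 4 and the oxidase list from 8 to 3, and the hypoxia call was lost (0) there, with no replicate block, and in the range of 0 to 1 with each pool left out. No share or transcript passed in any setting, since 4 or 5 pools cannot give an exact p under 0.05. Low counts limit Loxl4, which a filter at a mean log2 CPM of 3 left out.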
